A study of Arabidopsis thaliana with 4 samples.

Results

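A group of 93 probe sets of 22746 had a signal in the mock-treated GR-REV seedlings that lay at least 2-fold above, or at least 2-fold below, the signal in each of the other 3 arrays of this Arabidopsis experiment. GR-REV is a transgenic line of the Landsberg erecta (Ler) accession in which the HD-ZIP III transcription factor REVOLUTA is fused to the glucocorticoid receptor domain, driven throughout the plant by the viral 35S promoter and mutated at the microRNA-complementary site of its transcript. Members were chosen from the measured values: after a floor at a signal of 91.4 (the 40th percentile of all values), the GR-REV mock array had to lie at least 1 log2 unit above each, or below each, of the other arrays, with wild type dexamethasone within 1 log2 unit of wild type mock. OSM34, PDF1.2, AT4G16260 and the loci AT3G16330 to AT3G19590 were not considered, which removed 2 higher probe sets and 1 lower one and left 49 higher and 44 lower members. Of these, 24 higher and 20 lower members have 1 gene listed, none has several, and 25 and 24 have no gene listed here.

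The 4 groups are GR-REV mock (0.1% ethanol, no hormone), GR-REV dexamethasone (50 µg/ml dexamethasone in 0.1% ethanol), wild type Ler dexamethasone and wild type Ler mock. Each is 1 flask sown with 100 seeds and grown in liquid medium with glucose for 10 days, treated for 1 h and measured as RNA from 100 mg of tissue on 1 Affymetrix ATH1 array. The titles and treatment protocols call the array described here GR-REV mock, whereas its source name calls it dexamethasone-treated, and the other GR-REV array is contradicted in the same way. Groups follow the titles; if the source names are right, the array set apart here is the hormone-treated one, and "GR-REV mock" and "GR-REV dexamethasone" change places in every sentence.

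REVOLUTA belongs to a small family of transcription factors that set upper leaf identity, vascular pattern and meristem formation. A protein that carries the steroid-binding part of the glucocorticoid receptor is held in the cytoplasm until a steroid such as dexamethasone lets it enter the nucleus, so a mock-treated line serves as the uninduced baseline of such an experiment. Genes that stand apart in that baseline bear on every comparison made with it.

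With 1 array per group, and with every value used in the choice of members, no test applies, and the folds below are descriptions without replicate error. The rule called 51 probe sets higher, 0.224% of all probe sets, and 45 lower, 0.198%, before the named loci were left out. Put through the same rule, with the pair of the other genotype held within 1 log2 unit, the GR-REV dexamethasone array had 85 higher and 63 lower (0.374% and 0.277%), the wild type dexamethasone array 31 and 45 (0.136% and 0.198%) and the wild type mock array 100 and 11 (0.44% and 0.0484%). Both counts of the GR-REV mock array thus lay within the range of the other arrays, and it did not stand apart by the number of its probe sets.

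**Figure D1:**
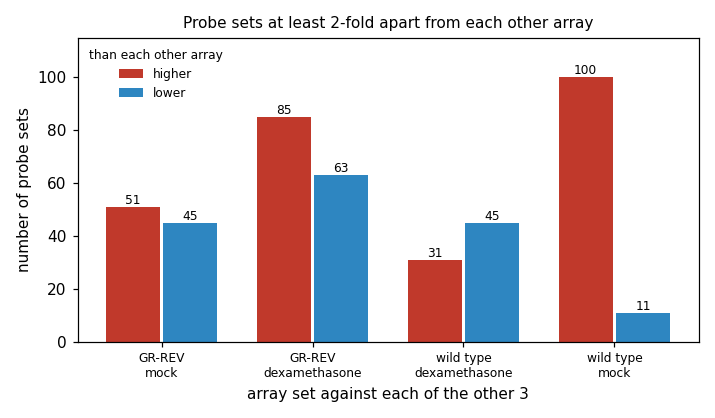
Number of probe sets (vertical axis) at least 2-fold higher (red) or lower (blue) on 1 array than on each of the other 3, with the pair of the other genotype within 2-fold, for each of the 4 arrays (horizontal axis). The GR-REV mock array has 51 and 45, GR-REV dexamethasone 85 and 63, wild type dexamethasone 31 and 45, and wild type mock 100 and 11.

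Facts of the arrays that touch these counts were as follows. Of all probe sets, 59.0% lay above the floor in GR-REV mock, against 58.9% in GR-REV dexamethasone, 59.2% in wild type dexamethasone and 62.9% in wild type mock. The ratio of 3′ to 5′ signals of the actin control, which rises as RNA is degraded, was 2.92 in GR-REV mock, 1.95 in GR-REV dexamethasone, 2.86 in wild type dexamethasone and 2.17 in wild type mock. That of the GAPDH control was 0.997, 0.907, 0.974 and 0.817 in the same order, and that of the ubiquitin control 1.01, 1.11, 0.894 and 1.02. GR-REV mock thus had the highest ratio for actin and GAPDH, close to wild type dexamethasone in both, and not for ubiquitin; the part of RNA quality in the results was not tested. Of 10 root marker genes 2 could be matched: PYK10, an abundant beta-glucosidase of roots and hypocotyls, had a signal of 16494 in GR-REV mock, 15758 in GR-REV dexamethasone, 10171 in wild type dexamethasone and 14189.5 in wild type mock, and EXPA7, an expansin of root hairs, lay below the floor on all 4. No shoot or seed marker of the lists used could be matched to a probe set. In whole seedlings, fewer cells of a type and less RNA per cell cannot be told apart.

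Among the named genes higher in GR-REV mock, the one farthest from the other arrays was AT4G10270, which encodes a small wound-responsive family protein and is known to be induced by low oxygen. Its signal was 1022 in GR-REV mock, against 249.7 in GR-REV dexamethasone, 177 in wild type dexamethasone and 114 in wild type mock, 4.09-fold above the nearest array. AT4G33560, of the same protein family, had 217 in GR-REV mock, against 43.4 in GR-REV dexamethasone, 41.9 in wild type dexamethasone and 36.5 in wild type mock, all 3 below the floor, so that it was at least 2.38-fold higher. AT1G33055, a further low-oxygen gene, had 558 in GR-REV mock against 227 in GR-REV dexamethasone, 211 in wild type dexamethasone and 237 in wild type mock, 2.35-fold above the nearest. In AT4G33560 and AT1G33055 the other 3 arrays lay close together, whereas in AT4G10270 GR-REV dexamethasone was 1.14 above wild type mock on the log2 scale.

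These 3 genes are the members found on a list of 38 genes known to be induced by low oxygen in Arabidopsis, where such genes serve fermentation, sugar use and oxygen sensing. The list was assembled with earlier results of these data known, the value of AT4G10270 among them. That gene takes part by choice in every share and median below, and other list genes may do so too. The 3 members are also highest in GR-REV mock by the rule. The shares and medians therefore only describe the list, and a common response of low-oxygen genes was not tested. Of the 38 genes, 18 could be matched to a probe set and 15 of these were above the floor on at least 1 array. The unmatched genes were not read, so the values below cover only a part of the list. GR-REV mock held the highest signal in 11, or 61.1% of the 18 and 73.3% of the 15; over all probe sets with 1 gene the same share was 12.9%, and over those above the floor on at least 1 array it was 21%. At least 2-fold above each other array were 3 of the 18, against 0.229% of all probe sets with 1 gene. These 3 are the members themselves, and the list was chosen with earlier results known, so the 2 shares are not like for like. Over the 18 genes the median difference was 0.39 on the log2 scale for GR-REV mock minus GR-REV dexamethasone, 0.44 for GR-REV mock minus wild type dexamethasone and 0.56 for GR-REV mock minus wild type mock, where the medians over all probe sets were 0.00.

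The other 8 list genes that were highest in GR-REV mock were not members and lay closer to the other arrays. AT2G17850, a rhodanese-domain gene, had 209 in GR-REV mock, against 75.0 in GR-REV dexamethasone, 42.0 in wild type dexamethasone and 105 in wild type mock, and missed the threshold narrowly at 0.997 on the log2 scale. AT3G27220, which encodes a kelch-repeat protein, had 309, 158, 97.3 and 130 in the same order and stood 1.96-fold above the nearest array. AT5G66985 had 179 in GR-REV mock and between 9.56 and 46.9 on the others, at least 1.95-fold higher. Which array came next differed among the 3: wild type mock for AT2G17850, GR-REV dexamethasone for AT3G27220, and none above the floor for AT5G66985.

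Of the metabolic genes on the list, PDC2, a pyruvate decarboxylase of ethanol fermentation, had a signal of 2356 in GR-REV mock, 1649.9 in GR-REV dexamethasone, 663 in wild type dexamethasone and 1149 in wild type mock. It was 1.43-fold above the nearest array, so both GR-REV arrays were high for it. AT3G03270, a universal stress protein gene, had 1419, 860.2, 566 and 643 in the same order and was 1.65-fold above the nearest. In the last 3 of the 11 genes GR-REV mock was barely the highest array: AT4G24110 was 1.31-fold, AT1G26270 1.23-fold and AT5G44730 1.09-fold above the nearest. Other list genes had another order. AT4G17260, the lactate dehydrogenase gene, had 417 in GR-REV mock, between 565 in GR-REV dexamethasone and 370.0 in wild type dexamethasone. CML38, a calmodulin-like gene, had 119 on both GR-REV arrays, against 318 in wild type dexamethasone and 405 in wild type mock. AT5G42200, a RING finger gene, had 79.2 in GR-REV mock and between 154 and 161 elsewhere, the lowest there. The list therefore did not move as a block.

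**Figure D2:**
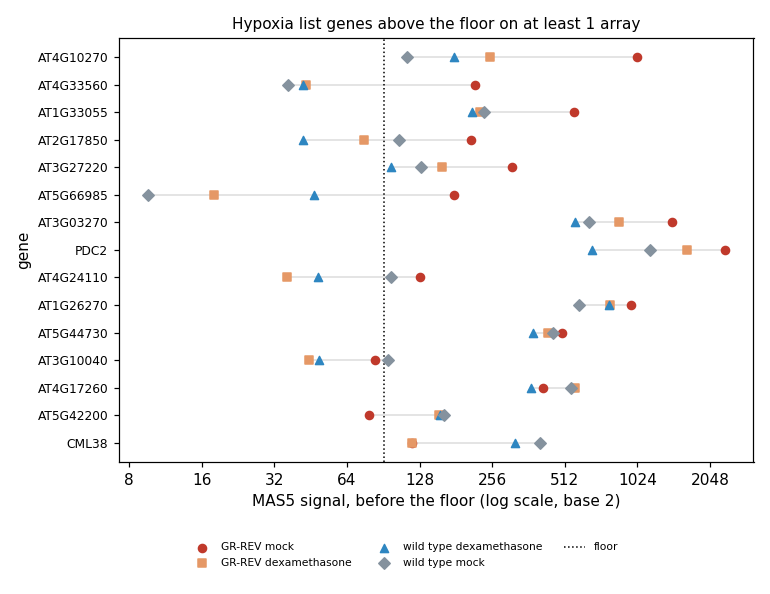
Signals (horizontal axis, log scale) of the 15 low-oxygen list genes above the floor (dotted line) on at least 1 array, 1 gene per row, with 1 point for each of the 4 arrays, ordered by the distance of GR-REV mock above the nearest other array. GR-REV mock (red circles) is the rightmost point in 11 rows, and in AT3G10040, AT4G17260, AT5G42200 and CML38 it is not (its point for CML38 lies under that of GR-REV dexamethasone).

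The next genes, grouped here only by what they encode, are carriers and enzymes. AT3G23550, a MATE-type efflux carrier, had 2434 in GR-REV mock, 785 in GR-REV dexamethasone, 409 in wild type dexamethasone and 670.1 in wild type mock, 3.10-fold above the nearest. MSRB5, a methionine sulfoxide reductase that repairs oxidized methionine, had 861 in GR-REV mock, 324 in GR-REV dexamethasone, 127 in wild type dexamethasone and 246 in wild type mock, a 2.66-fold distance. GSTU16, a tau-class glutathione S-transferase, had 901, 418, 103 and 162 in that order, 2.16-fold above GR-REV dexamethasone. In all 3 the lowest array was wild type dexamethasone, and in GSTU16 both GR-REV arrays lay more than 2-fold above both wild type arrays.

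The cytochrome P450 gene AT3G44970 had 273 in GR-REV mock and, below the floor, 62.5 in GR-REV dexamethasone, 8.86 in wild type dexamethasone and 67.4 in wild type mock, so it was at least 2.98-fold higher. AT4G08780, a class III peroxidase, had 347 in GR-REV mock, 116 in GR-REV dexamethasone, 135 in wild type dexamethasone and 120.0 in wild type mock, 2.56-fold above the nearest. For this peroxidase the other 3 arrays were nearly level. The peroxidase gene next to it among the measured loci, Prx37, had 1969.7 in GR-REV mock, against 1123 in GR-REV dexamethasone, 1116 in wild type dexamethasone and 905 in wild type mock, the same array highest at a distance of 0.81 on the log2 scale. Since sequences of neighbouring peroxidase genes can be alike, signal shared between their probes was not tested.

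Family relatives were read only where a probe set has 1 gene listed under the family's symbol, so the counts are not whole families. Among 4 MSRB genes read in this way, MSRB5 was the member, and MSRB6, 2 loci away from it, had 700.0 in GR-REV mock, against 852 in GR-REV dexamethasone, 1076 in wild type dexamethasone and 1155 in wild type mock, lowest in the array where MSRB5 was highest. Of 11 such GSTU genes, 8 were above the floor on at least 1 array, and GR-REV mock was highest only in GSTU16. Of 22 TBL genes, 13 were above the floor on at least 1 array. GR-REV mock was highest in 4 TBL genes, of which TBL38 was the member. Of the 2 SBT4 genes SBT4.13 lay below the floor on all arrays. Over all probe sets with 1 gene GR-REV mock was highest in 12.9%, and in 21% of those above the floor on at least 1 array. The members counted here are highest by the rule.

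Members that act on the cell wall or on proteins included TBL38, of a family whose members act on the acetyl groups of wall polysaccharides. TBL38 had 702 in GR-REV mock, 251 in GR-REV dexamethasone, 116 in wild type dexamethasone and 177 in wild type mock, 2.79-fold above the nearest. SBT4.12, a subtilisin-like serine protease, had 296, 109, 78.6 and 92.8 in the same order, 2.71-fold above GR-REV dexamethasone. Only the GR-REV mock array was well clear of the floor for SBT4.12.

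The higher members also included a receptor-like kinase and a resistance gene homologue. AT1G51820, a leucine-rich repeat receptor-like kinase, had 529 in GR-REV mock, 149 in GR-REV dexamethasone, and 37.6 and 60.6, below the floor, in wild type dexamethasone and wild type mock, a 3.54-fold distance. AT4G09420, of the TIR-NBS class of resistance genes, had 577 in GR-REV mock, 262 in GR-REV dexamethasone, 48.5 in wild type dexamethasone and 36.3 in wild type mock. It was thus near or below the floor in wild type and 2.21-fold higher in GR-REV mock than in the other GR-REV array. AT5G23830, of the MD-2-related lipid recognition family, had 317, 117, 51.1 and 58.0 in the same order, 2.70-fold above the nearest.

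AT5G20790, a gene known to respond to phosphate starvation, showed the widest gap to wild type of the named higher members. Its signal was 1222 in GR-REV mock and 478 in GR-REV dexamethasone, against 14.6 in wild type dexamethasone and 96.6 in wild type mock, and it was 2.56-fold higher in GR-REV mock than in GR-REV dexamethasone. None of the 11 phosphate starvation genes on the lists could be matched to a probe set. AT1G19200, of the FLZ zinc-finger family, had 251 in GR-REV mock, 78.8 in GR-REV dexamethasone, 91.2 in wild type dexamethasone and 97.9 in wild type mock, the last 3 close to the floor, a 2.57-fold distance.

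For the following genes no role is given. AT5G58570 had 1191 in GR-REV mock, 429 in GR-REV dexamethasone, 306 in wild type dexamethasone and 402 in wild type mock, 2.78-fold above the nearest. AT1G75190 had 400.3, 143, 165 and 165 in that order and AT2G04795 had 465, 213, 198 and 183. In these 3 the other arrays lay close together. AT1G27990 had 246 in GR-REV mock, 50.9 in GR-REV dexamethasone, 25.7 in wild type dexamethasone and 33.1 in wild type mock, at least 2.69-fold higher. AT1G20070 had 235, 76.3, 70.4 and 64.5 in that order, at least 2.57-fold higher. Both were below the floor on all arrays but GR-REV mock. The remaining 4 named genes were 2.02-fold to 2.16-fold above the nearest array: AT1G62290, a vacuolar-type aspartic protease, AT2G24580, a sarcosine oxidase, AT3G25290, an auxin-responsive family protein, and AT2G41000, a DnaJ-domain protein. The 25 higher members with no gene listed were 2.01-fold to 4.53-fold above the nearest array, the last as a bound.

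**Figure D3:**
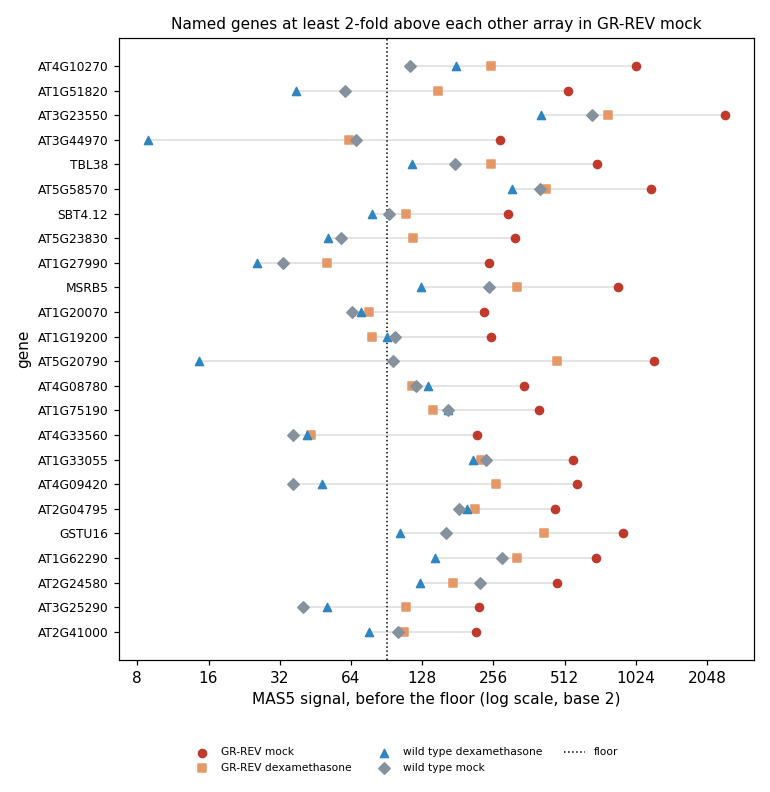
Signals (horizontal axis, log scale) of the 24 named higher members, 1 gene per row, ordered by distance to the nearest other array, with 1 point for each of the 4 arrays; the dotted line is the floor of 91.4. The red circles of GR-REV mock lie between 217 and 2434, to the right of all other points in their row by the choice of members, and GR-REV dexamethasone (orange squares) is next in most rows.

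The 49 higher members had a median signal of 527 in GR-REV mock, 212 in GR-REV dexamethasone, 125 in wild type dexamethasone and 161 in wild type mock. On the log2 scale, GR-REV mock stood a median of 1.38 above GR-REV dexamethasone, 1.70 above wild type dexamethasone and 1.53 above wild type mock. In 28 of the 49 all 4 arrays were above the floor, and in 8 all other arrays were at it. The largest distances were few: 5 were at least 3-fold above the nearest array. Just inside the threshold lay AT2G41000 and AT3G25290 at 1.01 and 1.03 on the log2 scale, and just outside it AT2G17850 at 0.997 and AT5G23760 at 0.988.

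The order of the other 3 arrays was not used by the rule, apart from the limit on the wild type pair. GR-REV dexamethasone was next highest in 27 of 49 higher members, or 55.1%, against 48.6% of all 3153 probe sets in which GR-REV mock was highest. The share over all probe sets was taken without the limit on the wild type pair and without the 2-fold distance. In 8 members GR-REV dexamethasone was below both wild type arrays, among them AT4G08780 and AT1G75190. In 4 it was itself at least 2-fold above both wild type arrays: AT5G20790, AT4G09420, GSTU16 and a probe set with no gene listed. In these 4 both GR-REV arrays were high, and GR-REV mock was the higher. Within the 2-fold limit that the rule set on the wild type pair, dexamethasone was below mock in 26 members, above it in 10, and both were at the floor in 13. Of the 36 in which the 2 differed it was below in 72.2%. Over all 14662 probe sets in which they differed, without that limit, it was below in 58.4%.

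The 20 named genes lower in GR-REV mock are also grouped only by what they encode. AT5G55180, a glycosyl hydrolase of the beta-1,3-glucanase type, was farthest from the other arrays, with 572 in GR-REV mock, 1768 in GR-REV dexamethasone, 2284 in wild type dexamethasone and 3792 in wild type mock, 3.09-fold below the nearest. XTH16, an enzyme that cuts and rejoins xyloglucan, had 226, 458, 564 and 682 in the same order, 2.02-fold below GR-REV dexamethasone. Of 9 genes with an XTH symbol, 5 were above the floor on at least 1 array. GR-REV mock was lowest in 2 of the 9, XTH16 among them by the rule, against 12.5% of all probe sets with 1 gene. AT4G28780, a GDSL-type lipase, had 164 in GR-REV mock, 765 in GR-REV dexamethasone, 476 in wild type dexamethasone and 333 in wild type mock. For this lipase the 2 GR-REV arrays were the extremes, with a difference of -2.22 on the log2 scale for GR-REV mock minus GR-REV dexamethasone, and GR-REV mock was 2.03-fold below its nearest array.

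AT5G55450, of the lipid-transfer protein family that carries lipids to the plant surface, spanned the widest range of the named lower members. It had a signal of 829.7 in GR-REV mock and 1847 in GR-REV dexamethasone, against 10945 in wild type dexamethasone and 5736 in wild type mock. Both GR-REV arrays were thus more than 3-fold below both wild type arrays, and GR-REV mock was 2.23-fold below the other GR-REV array. AT4G29020, a glycine-rich protein gene, had 1149 in GR-REV mock, 2681 in GR-REV dexamethasone, 3874 in wild type dexamethasone and 2905 in wild type mock, 2.33-fold below the nearest.

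STOMAGEN, a secreted peptide made in the leaf mesophyll that promotes stomata, had 207 in GR-REV mock, 498 in GR-REV dexamethasone, 1024 in wild type dexamethasone and 719.8 in wild type mock. It was 2.40-fold lower in GR-REV mock than in the nearest array, and the 2 wild type arrays were the highest. Its distance was 0.98 on the log2 scale when the floor value was added to every signal and 0.87 when the floor was raised to the 60th percentile, both short of the threshold.

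The lower members also included a lectin, a defensin-like and a thaumatin-like gene. AT5G03350, a legume-type lectin gene known to respond to salicylate, had 1107 in GR-REV mock, 2666 in GR-REV dexamethasone, 4996 in wild type dexamethasone and 2830.1 in wild type mock, 2.41-fold below the nearest. AT3G05730, a defensin-like gene, had 3811, 8112, 13067 and 8955 in the same order, 2.13-fold below GR-REV dexamethasone. AT2G28790, of the thaumatin family, had 113 in GR-REV mock, 259 in GR-REV dexamethasone, 267 in wild type dexamethasone and 253 in wild type mock, a 2.24-fold distance. In the lectin and defensin-like genes wild type dexamethasone was the highest array, and in the thaumatin gene the other 3 were level.

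Kinases, carriers and metal-binding proteins were also among the lower members. AT1G68400, a leucine-rich repeat receptor-like kinase, had 83.3 in GR-REV mock, below the floor, and 204, 241 and 355 in GR-REV dexamethasone, wild type dexamethasone and wild type mock, so it was at least 2.23-fold lower. AT1G49580, a kinase related to the calcium-dependent protein kinases, had 90.2 in GR-REV mock, also below the floor, 185 in GR-REV dexamethasone, 239 in wild type dexamethasone and 185 in wild type mock, at least 2.03-fold lower. AT1G68570, a member of the NPF carrier family, had 323 in GR-REV mock, 741 in GR-REV dexamethasone, 827 in wild type dexamethasone and 916 in wild type mock, 2.29-fold below the nearest. Its other 3 arrays lay close together. AT5G60800, of the heavy-metal-associated domain family, had 123 in GR-REV mock, 381 in GR-REV dexamethasone, 272 in wild type dexamethasone and 288 in wild type mock, 2.20-fold below wild type dexamethasone.

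AT2G44370, a cysteine- and histidine-rich C1-domain gene, had 210.3 in GR-REV mock and 654 in GR-REV dexamethasone, against 462 in wild type dexamethasone and 450.0 in wild type mock. As in AT5G60800, the 2 GR-REV arrays lay on either side of wild type. AT2G44380, the neighbouring gene of the same kind, did not share this order: it had 261 in GR-REV mock and 251 in GR-REV dexamethasone, against 519 in wild type dexamethasone and 586 in wild type mock. AT5G22580, a stress-responsive A/B barrel gene, had 856 in GR-REV mock, 2229.8 in GR-REV dexamethasone, 2179 in wild type dexamethasone and 1763 in wild type mock, 2.06-fold below the nearest.

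Of the others, AT5G07030, an aspartic protease gene, had 89.9 in GR-REV mock, below the floor, and 232, 431 and 291 in GR-REV dexamethasone, wild type dexamethasone and wild type mock, at least 2.54-fold lower. AT1G17430, an alpha/beta-hydrolase gene, had 165 in GR-REV mock, 341 in GR-REV dexamethasone, 358 in wild type dexamethasone and 397 in wild type mock. AT1G76600 had 457 in GR-REV mock, 1029.7 in GR-REV dexamethasone, 1169.7 in wild type dexamethasone and 1256 in wild type mock. In both genes the other 3 arrays were nearly level. AT1G11850 had 436 in GR-REV mock, 936 in GR-REV dexamethasone, 1888 in wild type dexamethasone and 1369 in wild type mock. AT2G07707, at 116, 246, 399 and 329 in that order, is read by a probe set of a kind that can match several sequences, so its signal may not come from that locus alone. The 24 lower members with no gene listed were 2.04-fold to 3.76-fold below the nearest array.

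**Figure D4:**
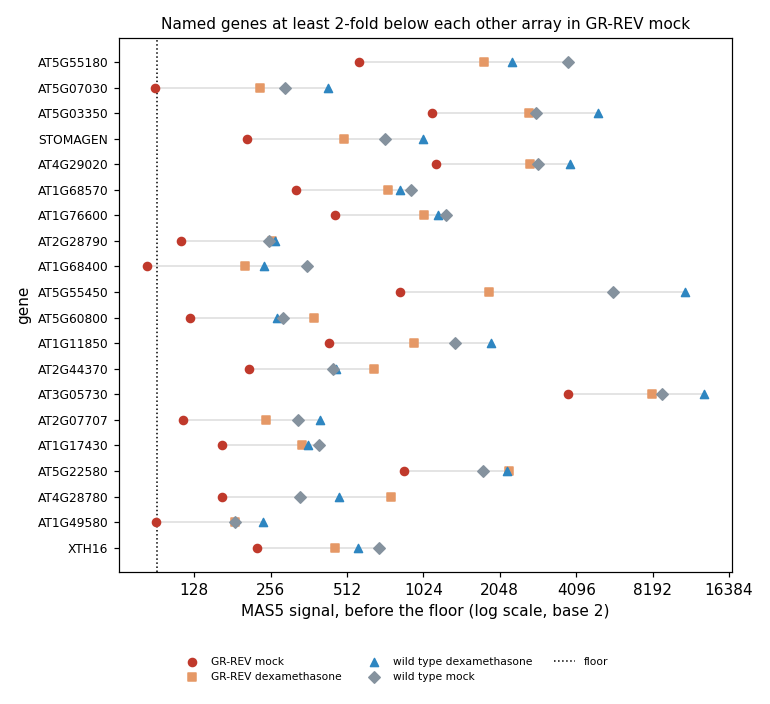
Signals (horizontal axis, log scale) of the 20 named lower members, 1 gene per row, ordered by distance to the nearest other array, with 1 point for each of the 4 arrays; the dotted line is the floor of 91.4. The red circles of GR-REV mock lie between 83.3 and 3811, to the left of all other points in their row by the choice of members, and the blue triangles of wild type dexamethasone are rightmost in several rows.

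The 44 lower members had a median signal of 216 in GR-REV mock, 634 in GR-REV dexamethasone, 773 in wild type dexamethasone and 639 in wild type mock. The median difference on the log2 scale was -1.27 for GR-REV mock minus GR-REV dexamethasone, -1.76 for GR-REV mock minus wild type dexamethasone and -1.50 for GR-REV mock minus wild type mock. All 4 arrays were above the floor in 37 of the 44, and GR-REV mock was at the floor in the other 7. At least 3-fold below the nearest array were 7, of which AT5G55180 is the only one with a gene listed. XTH16 and AT1G49580 lay just inside the threshold, both at 1.02 on the log2 scale, and AT5G18430 just outside it, at 0.98.

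GR-REV dexamethasone was the next lowest array in 28 of the 44, or 63.6%, against 44.8% of all 3182 probe sets in which GR-REV mock was lowest. Here too the share over all probe sets was taken without the wild type limit and without the 2-fold distance. In 5 members GR-REV dexamethasone was itself at least 2-fold below both wild type arrays, of which AT5G55450 is the only one with a gene listed. It was above both wild type arrays in 8, among them AT4G28780, AT5G60800, AT2G44370 and AT5G22580. Within the limit of the rule, wild type dexamethasone was above wild type mock in 32 of the 44, or 72.7%, and below it in 12. Over all 14662 probe sets in which the wild type arrays differed after the floor, without that limit, it was above in 41.6%. Since the rule used the wild type arrays, these counts only describe the members.

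No named member has another probe set with the same single gene, so none could be read with other probes. For 24 higher and 20 lower named members the nearest measured genes within 3 loci on either side were read. Of 42 such neighbours of higher members GR-REV mock was highest in 5, and of 32 neighbours of lower members it was lowest in 5, against 12.9% and 12.5% of all probe sets with 1 gene; none lay 2-fold apart from each other array. Named higher members were spread over chromosomes 1 to 5 with 9, 3, 3, 5 and 4 genes, and lower ones with 6, 3, 2, 3 and 6.

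The other lists held no member. Of the salicylate and pathogen list 2 of 18 genes could be matched. Both are defensin genes, PDF1.2 and PDF1.2b, so no salicylate response gene of that list was read. PDF1.2, a plant defensin gene that was left out of the members beforehand, had 5721 in GR-REV mock, 1541 in GR-REV dexamethasone, 2822 in wild type dexamethasone and 1341 in wild type mock. It too was more than 2-fold above each other array, but its wild type dexamethasone minus wild type mock was 1.07 on the log2 scale. That is past the limit on the wild type pair, so the rule itself would not have taken PDF1.2 as a member. PDF1.2b had 6438, 1854, 6287 and 6447 in the same order, with GR-REV dexamethasone the lowest and the others level. Of the abscisic acid and drought list 6 of 25 genes could be matched, and none was highest in GR-REV mock after the floor. LTI30, a dehydrin, had 314 in GR-REV mock, the lowest of the 4, against 483 in GR-REV dexamethasone, 416 in wild type dexamethasone and 436 in wild type mock. COR47 had 4886, 5901, 4368 and 3923 in that order, with both GR-REV arrays above both wild type arrays. Of the heat list 4 of 16 could be matched and 2 were above the floor on some array. AT5G48570, a heat-induced FKBP-type gene, had 154 in GR-REV mock, 373 in GR-REV dexamethasone, 203 in wild type dexamethasone and 204 in wild type mock. AT2G29500, the other, had 477, 685, 173 and 114 in that order, with both GR-REV arrays above both wild type arrays. The zinc-finger gene STZ, of the 2 matched genes of 16 on the rapid stress list, had 605 and 653 on the GR-REV arrays, against 1255 and 1103 in wild type dexamethasone and wild type mock. WRKY53, the other, had 466 in GR-REV mock, 713 in GR-REV dexamethasone, 272 in wild type dexamethasone and 632 in wild type mock. After the floor, GR-REV mock was the highest array in none of the matched genes of these 3 lists. Of the clock, nitrate and sugar starvation lists 1, 1 and 3 genes were matched, with GR-REV mock highest in none, and of the jasmonate and ethylene lists no gene was.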

How the data were processed

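Biotin-labelled RNA was measured on 4 ATH1 arrays, 1 per group, grouped by title. The authors deposited 1 intensity per probe set on a linear scale, made with MAS5 per the submitters' processing notes (version not given in the sources used here). Every array has a 2% trimmed mean near 500.05, and none was scaled further. Each was washed in a different fluidics module per the file headers; module effects and group differences cannot be told apart.

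Of 22810 probe sets, 64 controls were left out. Signals below the 40th percentile of the other 22746, 91.4, were set to it before log2, in Python 3.11.15 with numpy 2.4.6 and pandas 2.3.3. A fold against a floored signal is written "at least", and the number of arrays limits the precision. Signals printed are those before the floor. Probe sets were named from the platform annotation, updated through the RefSeq gene table of TAIR10.1: 13513 had 1 gene (13436 matched), 503 several and 8730 none listed. Loci could be left out only where a gene is listed.

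Every member with 1 gene was named; the first 20 per direction by distance have all signals printed, grouped in the text by what they encode. The members and lists were chosen with earlier results of these data known. The code of the rule was run on simulated data, with planted shifts larger than most member distances and in probe sets well above the floor. That run does not bear on members near the threshold or the floor. Alternatives were other floors, the floor value added, quantile normalization, division by the median, a 3-fold distance and no wild type limit. Promoter motifs were not analysed here.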

Additional observations from a re-analysis of the deposited data

Results flagged for a closer look

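The control probe set for 25S rRNA, which no comparison used, had a signal of 859 in GR-REV mock, against 929 in GR-REV dexamethasone, 768 in wild type dexamethasone and 293 in wild type mock. It is given because a signal outside the measured genes lay above that of the wild type mock array; the wild type mock array was the one that stood apart, and its part in the choice of members was not tested.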

How the results depend on the processing

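The number of genes apart in GR-REV mock depended on the floor and, more, on the distance asked for. Against 49 higher and 44 lower members, a 25th percentile floor gave 70 and 97, a 60th percentile floor 28 and 21, adding the floor value 27 and 21, and a 3-fold distance 5 and 7. Quantile normalization gave 51 and 39, division by the median 59 and 35, and no limit on the wild type pair 57 and 50. Of the 49 and 44 themselves, 23 and 21 were still members when the floor was raised to the 60th percentile, 25 and 19 when the floor value was added, 45 and 37 after quantile normalization and 47 and 33 after division by the median, which adds 0.17 on the log2 scale to GR-REV mock minus wild type mock. Leaving out 1 of the arrays compared with GR-REV mock, chosen after seeing the data, only removes a condition and gave 63 to 361 higher and 65 to 251 lower, with 105 and 91 without wild type mock and 361 and 251 without GR-REV dexamethasone.

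Of the named genes, 6 of 24 higher (AT4G10270, AT3G23550, TBL38, AT5G58570, MSRB5 and AT5G20790) and 7 of 20 lower (AT5G55180, AT5G03350, AT4G29020, AT1G68570, AT1G76600, AT5G55450 and AT3G05730) kept a 2-fold distance under both other floors, the added floor value and both scalings. None changed direction. The 6 and 7 genes were counted by distance alone, without the limit on the wild type pair. At the 25th percentile floor all 24 named higher genes kept the distance, but with the limit 23 were still members. After division by the median 15 of the 20 named lower genes kept the distance, and 13 were still members. AT5G20790 exceeded the limit at that floor, and AT5G03350 and AT5G55450 exceeded it after division by the median. No paired analysis was possible because each group has 1 array.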
